A study of Homo sapiens with 47 samples.

Results

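*NUP58*, *NUP54* and *NUP62* encode the 3 subunits of the channel trimer of the nuclear pore complex (NPC), and *NUP58* was the gene edited in this study. Their rows were taken by gene symbol from a table of 57507 genes, in which each of the 3 symbols stood on a single row. Their mRNA levels were compared across 32 libraries of HAP1 cells and 15 libraries of HCT116 cells.

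In the NPC, NUP62, NUP58 and NUP54 join through coiled coils into a trimer that is held in the inner ring by NUP93. Each subunit also carries repeats of phenylalanine and glycine (FG repeats), which reach into the central channel and bind the transport receptors that carry cargo through the pore. NUP62 is shared with a further complex on the cytoplasmic face, where it meets NUP88 and NUP214.

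HAP1 is a near-haploid human line of chronic myeloid leukemia origin. Its libraries came from wild-type cells (WT), a control line that received Cas9 without guide RNA (EV) and 6 *NUP58* mutant clones (C1–C6), with 4 libraries each. Each clone grew from a single cell after Cas9 editing with a pair of guides against exons 4 and 13 of *NUP58*, so that a clone is 1 line and its libraries are no sample of independent edits. By the study's account all clones carry small insertions or deletions at the targeted sites, with larger deletions in C2 and C5, they were picked as the smallest colonies that stayed viable, and RNA was taken at the first passage. HCT116 is a human colorectal carcinoma line, with 4 libraries of 1 clone mutated in exon 4 on both alleles and 11 unedited libraries. Of the unedited HCT116 libraries 2 were labeled WT, 3 EV1 and 4 EV2, and the title and genotype of the other 2, both numbered 4, conflict on whether they are WT or empty vector. They were used here only as unedited. The study describes the HAP1 libraries as independent experimental replicates and the HCT116 libraries both as biological and as technical ones, so that p-values in HCT116 may measure technical spread.

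Levels are FPKM, the fragments mapped to a gene, scaled to the length of its transcripts and to the mapped fragments of the library. This allows levels of different genes to be compared per length where transcripts are as annotated. By the study's account, *NUP58* transcripts of C1, C2, C3 and C5 end at exon 13. Those of C2 and C5 also skip exon 4, as do some of C4 and C6. Exon 4 has 150 annotated bases, and exons 14 to 16 have 99, 96 and 2457. In the *NUP58* levels, shares and ratios of C1, C2, C3 and C5, fewer and shorter transcripts therefore cannot be told apart. In C4 and C6 the shortening reported concerns exon 4 alone. Its effect on the values was not tested in any clone. The number of fragments behind a value is unknown. The relative depth of the libraries, read from the smallest steps of the values, was 0.753 to 1.153 over the HAP1 libraries and 0.758 to 0.983 over those of HCT116. Of 8 epithelial markers, 6 had a median FPKM of at least 1 in HCT116, where they summed to 1495 to 2778 per library, against 2 in HAP1, with sums of 18.8 to 65.6. Of 8 blood cell markers, 1 had such a median in HAP1, with sums of 0.986 to 3.38, so that markers of the leukemic origin were nearly absent. In HCT116, 2 of these had such a median, with higher sums of 5.22 to 18.6. Within HCT116, replicate 3 of the clone had *NUP58* at the level of the controls, and replicate 3 of EV2 had it at the level of the clone, against their labels. HCT116 results are therefore also given without the libraries numbered 3. Since those libraries stood out by *NUP58* itself, a larger change of *NUP58* in the clone without them follows from their choice, and its values in that setting are a description with no test.

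*NUP58* (ENSG00000139496.15) lies at chr13:25301524-25365390 on the plus strand, *NUP54* (ENSG00000138750.14) at chr4:76107562-76148485 on the minus strand, and *NUP62* (ENSG00000213024.11) at chr19:49906825-49929764 on the minus strand (GRCh38, GENCODE release 44). The coding sequences of their canonical transcripts hold 599, 507 and 522 codons. Phe-Gly codon pairs were counted in frame on the coding strand as TTTGGN or TTCGGN, with N for any base. There were 14 in *NUP58*, 9 in *NUP54* and 6 in *NUP62*, against a median of 1 in 19541 canonical human coding sequences, of which 2.59% hold at least 6, 0.650% at least 9 and 0.133% at least 14. All 6 pairs of *NUP62* and 8 of the 9 of *NUP54* lie before the midpoint of the coding sequence, while *NUP58* has 5 pairs in exons 1 and 2 and 9 in exons 14 to 16.

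To show this shared feature, the 90 coding bases with the most pairs within an exon are printed for each gene, read 5′ to 3′ on the coding strand, with the Phe-Gly codon pairs in capitals. They lie in exon 15 of *NUP58* (chr13:25338638-25338727, plus strand, 4 pairs), exon 3 of *NUP54* (chr4:76144201-76144290, minus strand, 4 pairs) and exon 3 of *NUP62* (chr19:49909718-49909807, minus strand, 2 pairs).
NUP58: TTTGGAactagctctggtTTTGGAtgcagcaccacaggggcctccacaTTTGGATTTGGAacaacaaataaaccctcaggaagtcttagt
NUP54: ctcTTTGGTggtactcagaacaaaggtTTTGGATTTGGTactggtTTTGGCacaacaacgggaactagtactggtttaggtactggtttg
NUP62: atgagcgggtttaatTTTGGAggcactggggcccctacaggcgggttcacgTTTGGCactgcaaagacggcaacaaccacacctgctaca

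The 2 exons of *NUP58* that were targeted follow, in the same notation. Exon 4 (chr13:25312883-25313032, 150 bases, codons 96 to 146) and exon 13 (chr13:25331357-25331558, 202 bases, codons 412 to 479) are coding throughout and hold no such pair, hence no capitals. The length of exon 4 is a multiple of 3 and that of exon 13 is not.
NUP58 exon 4: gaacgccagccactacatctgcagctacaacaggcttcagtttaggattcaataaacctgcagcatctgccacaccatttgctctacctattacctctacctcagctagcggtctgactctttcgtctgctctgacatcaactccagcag
NUP58 exon 13: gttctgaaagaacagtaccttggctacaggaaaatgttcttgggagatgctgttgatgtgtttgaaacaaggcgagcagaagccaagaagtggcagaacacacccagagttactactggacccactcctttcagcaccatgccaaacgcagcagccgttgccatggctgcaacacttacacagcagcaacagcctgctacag

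**Figure D1:**
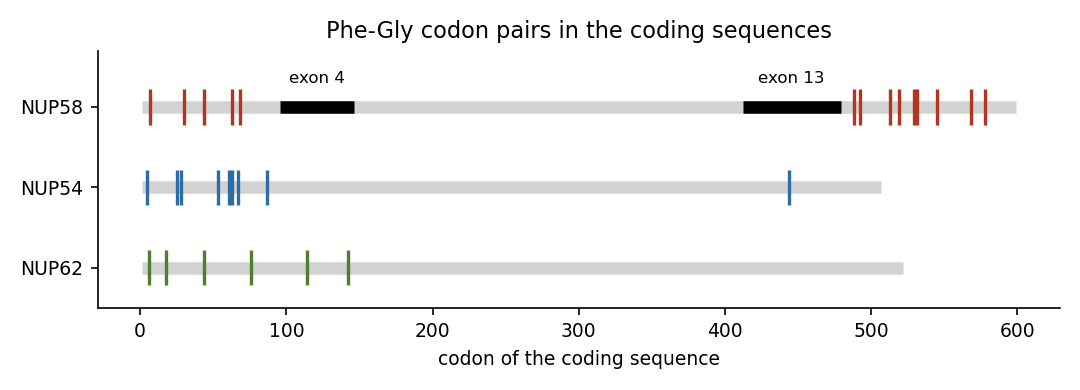
Phe-Gly codon pairs (colored ticks) along the coding sequences of NUP58, NUP54 and NUP62 (gray bars), with codon number on the x axis. The 2 targeted exons of NUP58 (black) lie between its 5 first and its 9 last pairs.

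*NUP58* mRNA was lower in all 24 libraries of the HAP1 clones than in any WT library, while *NUP54* and *NUP62* overlapped with WT in every clone. In WT the *NUP58* level was 34.3, 34.7, 50.4 and 45.8 FPKM in replicates 1 to 4, and in EV it was 35.3, 37.7, 45.0 and 43.2. Both unedited lines covered the same range.

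Among the clones, C1 had 11.3, 9.10, 10.2 and 9.96 FPKM of *NUP58*, and C2 had 7.98, 10.7, 11.5 and 8.99. C3 was slightly higher with 15.03, 10.7, 13.7 and 11.6 FPKM. These 3 clones overlapped with each other. C5 had 18.2, 11.9, 22.1 and 10.3 FPKM, the widest spread of the 8 lines relative to its mean, and C6 had 15.8, 18.5, 14.3 and 13.04. C4 stood between the other clones and the unedited lines with 25.4, 22.6, 28.0 and 25.9 FPKM. As shares of the WT mean, the means of C1 and C2 were 24.6% and 23.7%, that of C3 was 30.9%, those of C5 and C6 were 37.8% and 37.3%, and C4 kept 61.7%, against 97.5% in EV. In RNA from many cells, a lower level in each cell and fewer cells with the transcript cannot be told apart.

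For the mean of the 6 clones against WT, fitted over the 32 HAP1 libraries with limma on log2(FPKM + 1), the log2 fold change of *NUP58* was -1.48 (95% interval -1.75 to -1.21, adjusted p = 9.59e-09). The fit takes its spread from libraries within lines, so this p-value does not measure spread between clones. Of 13180 genes tested, 3.43% were lower at an adjusted p under 0.05, and 0.243% were lower in every clone library than in every WT library. With the replicate number as a block 1659 genes were called in either direction, against 870 without it. In the single clones, *NUP58* passed the test as lower in 5 of 6. The adjusted p from limma was 0.000363 for C1 (where 0.19% of all genes were called lower), 0.000709 for C2 (0.389%) and 0.00420 for C3 (0.0531%). It was 0.00659 for C5, where 4.27% of genes were called lower, and 0.000697 for C6, where 5.39% were. The share of genes with all 4 libraries below all 4 of WT was 1.81% for C3 and 2.9% for C4, 4.95% for C1 and 4.99% for C2, and 8.02% for C5 and 8.39% for C6. In C4 the log2 fold change of -0.66 (95% interval -0.997 to -0.32) had an adjusted p of 0.196 from limma, while 0.0686% of genes were called lower. With the replicate number as a block, since the C4 and WT libraries of the same number varied together, the adjusted p of C4 was 0.0141. It was 0.0116 with *ASNS* as a covariate and 0.0151 against WT and EV together. For C4 these settings called 319, 158 and 162 genes in either direction, in this order, against 21 without them. The gained calls of *NUP58* thus came with more calls among all genes. The 7 comparisons share the same 4 WT libraries. In EV, *NUP58* changed by -0.02 (95% interval -0.35 to 0.30, adjusted p = 0.9995 from limma), where 0.038% of genes were called.

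**Figure D2:**
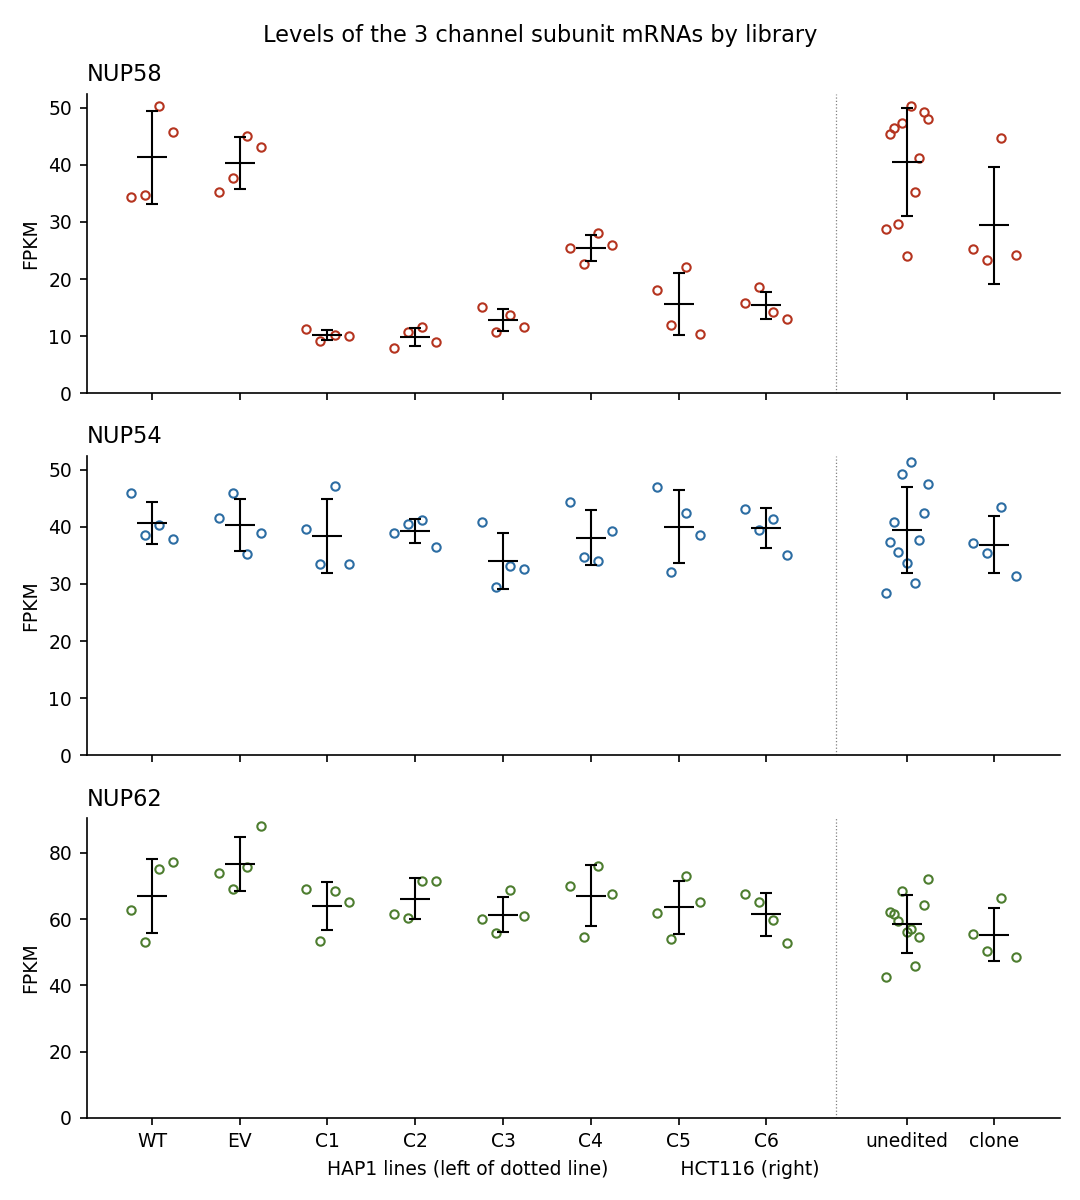
FPKM of NUP58, NUP54 and NUP62 (y axes) in each library of the 8 HAP1 lines and of unedited and clonal HCT116 cells (x axis). Circles are libraries, and black bars give mean and SD (n = 4 per line, n = 11 for unedited HCT116). NUP58 lies at 7.98 to 28.0 in the HAP1 clones and at 34.3 to 50.4 in WT, while the other genes overlap between lines.

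*NUP54* and *NUP62*, the partners of *NUP58* in the trimer, did not pass the test in any HAP1 line. *NUP54*, which binds both other subunits, had 45.9, 38.5, 40.4 and 37.9 FPKM in WT and 29.4 to 47.2 across the 24 clone libraries, with a median of 39.1. Its means per clone were 83.7% (C3) to 98.4% (C5) of the WT mean. For the mean of the 6 clones the log2 fold change was -0.09 (95% interval -0.28 to 0.10, adjusted p = 0.652 from limma). C3 was lowest, with 40.9, 29.4, 33.2 and 32.7 FPKM and a log2 fold change of -0.26 (95% interval -0.54 to 0.03).

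*NUP62*, the subunit that is also part of the cytoplasmic complex, had 62.6, 53.1, 75.0 and 77.1 FPKM in WT and 52.9 to 76.1 across the clone libraries, with a median of 65.2. Its means per clone were 91.6% (C3) to 100.1% (C4) of the WT mean, and EV, with 74.0, 69.0, 75.7 and 88.2 FPKM, had 114.6%. The log2 fold change was -0.06 for the mean of the 6 clones (95% interval -0.25 to 0.13, adjusted p = 0.800 from limma) and 0.20 in EV (95% interval -0.09 to 0.50). The change of *NUP62* depended on the reference, since EV was higher than WT. With EV in place of WT it was -0.26 in the mean of the clones (adjusted p = 0.0832 from limma) and -0.20 (C4) to -0.32 (C3 and C6) in single clones, the lowest adjusted p being 0.0604 in C6. With WT and EV as 1 reference, *NUP62* in the mean of the clones was at -0.16 (adjusted p = 0.123 from limma). In the libraries numbered 2, *NUP62* was above the mean of its line in 1 of 8 lines (mean log2 deviation -0.17), while *ASNS*, the asparagine synthetase gene, was above it in 8 of 8 (1.38). *NUP58* and *NUP54* were above it in 2 of 8 lines each (-0.093 and -0.0805), so that lower values there were not particular to *NUP62*. With the level of *ASNS* as a covariate, the change of *NUP62* in the mean of the clones was -0.07 (adjusted p = 0.481 from limma).

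**Figure D3:**
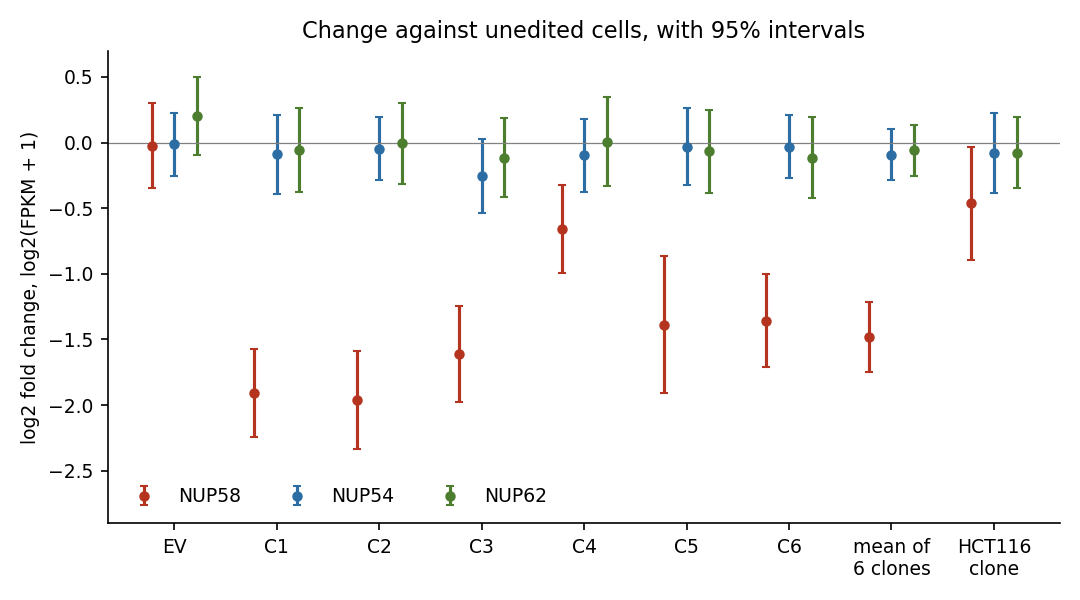
Log2 fold changes on log2(FPKM + 1) with 95% intervals from limma (y axis) for NUP58, NUP54 and NUP62 in each HAP1 line and in the mean of the 6 clones against WT, and in the HCT116 clone against 11 unedited libraries (x axis). Intervals of NUP54 and NUP62 include 0 throughout, and those of NUP58 lie below 0 in all but EV.

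The 3 mRNAs stood in other proportions in the clones. In WT, *NUP58* made up 27.6% ± 2.68 of the summed FPKM of the 3 genes, *NUP54* 27.6% ± 4.31 and *NUP62* 44.8% ± 2.49 (SD, n = 4). The *NUP58* share was 25.6% ± 2.35 in EV, 19.5% ± 0.980 in C4, 13.2% ± 1.25 in C6, 12.9% ± 3.01 in C5, 11.8% ± 0.866 in C3, 9.05% ± 0.630 in C1 and 8.48% ± 1.12 in C2 (SD, n = 4 each). The highest share of any clone library, 20.3% in C4, was below the lowest of WT, 24.01%. A share depends on all 3 genes, so that the shares of *NUP54* and *NUP62* rose by construction.

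Ratios within a library do not depend on how libraries are scaled. *NUP58* and *NUP54* were at nearly equal levels in WT, with ratios of 0.747, 0.902, 1.25 and 1.21, and in EV, with 0.850, 0.821, 1.28 and 1.11. In C1 the ratio was 0.285, 0.272, 0.217 and 0.298, and in C2 it was 0.205, 0.264, 0.279 and 0.247. No library of C1 or C2 reached the lowest ratio of C3. The ranges were 0.356 to 0.412 in C3, 0.267 to 0.520 in C5, 0.345 to 0.470 in C6 and 0.573 to 0.823 in C4. Only C4 overlapped with WT.

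The ratio of *NUP58* to *NUP62* did not overlap between clones and unedited lines, with 0.548, 0.653, 0.672 and 0.594 in WT and 0.477, 0.546, 0.595 and 0.490 in EV. C4 had 0.362, 0.415, 0.368 and 0.384, and the other clones lay between 0.125 (C2) and 0.302 (C5). No clone library reached the range of WT or EV. The ratio of *NUP54* to *NUP62* was 0.491 to 0.733 in WT, 0.441 to 0.664 in EV and 0.447 to 0.759 over the clones.

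In exact two-sided permutation tests of log2 ratios over all 24 clone and 4 WT libraries, the ratio of *NUP58* to *NUP54* differed by -1.46 (p = 9.77e-05, adjusted p = 0.000147) and that of *NUP58* to *NUP62* by -1.49 (p = 4.88e-05, the smallest that the 20475 arrangements allow, adjusted p = 0.000147). *NUP54* to *NUP62* differed by -0.04 (p = 0.746, exact permutation test). These tests shuffle libraries freely, though the 24 come from clones with 4 libraries each. Libraries of a clone are not independent, so these p-values can be too small for a statement about clones. For single clones, the difference ran from -0.58 (C4) to -2.02 (C2) for *NUP58* to *NUP54* and from -0.69 (C4) to -2.06 (C2) for *NUP58* to *NUP62*. In 11 of these 12 cases p was 0.0286, the smallest that the 70 arrangements of 4 against 4 allow in an exact permutation test, and it was 0.0571 for *NUP58* to *NUP54* in C4. Adjusted over the 21 tests of 3 ratios in 7 lines, the p-value of the 11 was 0.0545, so that none passed 0.05 against WT alone. With WT and EV as 1 reference of 8 libraries, all 12 passed in exact permutation tests, with adjusted p-values of 0.00331 for 11 and 0.0152 for *NUP58* to *NUP54* in C4. EV itself differed from WT by -0.01 for *NUP58* to *NUP54* and by -0.23 for *NUP58* to *NUP62* (p = 0.0857, exact permutation test).

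**Figure D4:**
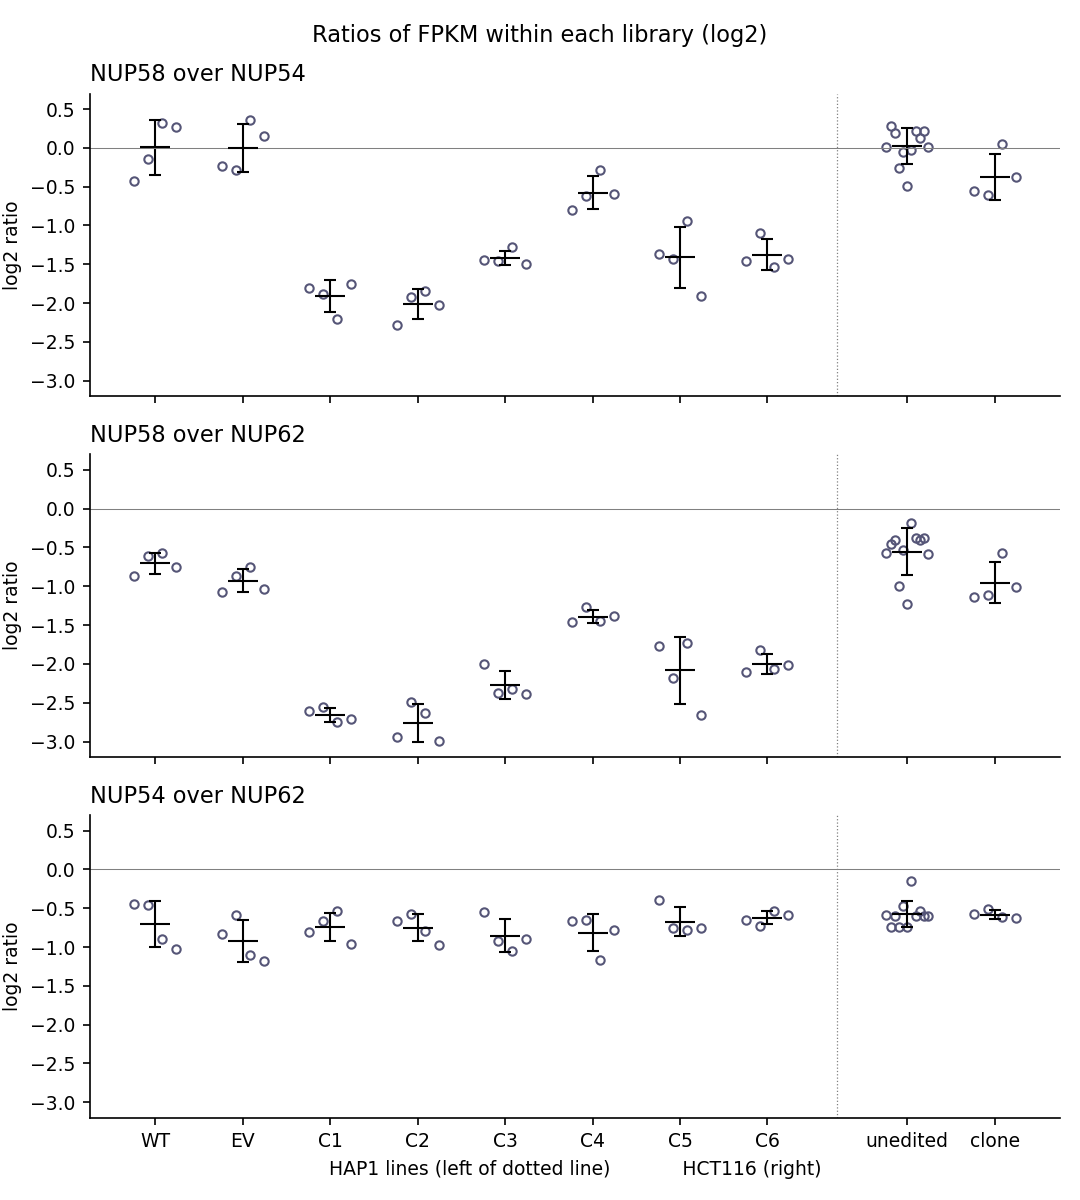
Log2 ratios of FPKM within each library (y axes) for the 3 pairs of genes, by HAP1 line and in unedited and clonal HCT116 cells (x axis). Circles are libraries, and black bars give mean and SD (n = 4 per line, n = 11 for unedited HCT116). Both ratios with NUP58 fall in the clones, and the ratio of NUP54 to NUP62 stays in 1 range.

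In the order of *NUP58* means, WT was followed by EV, C4, C5, C6, C3, C1 and C2. Of the 7 neighbors in this order, EV and C4, and C4 and C5, had ranges that did not overlap (p = 0.0286 each, exact permutation test, adjusted p = 0.3 over 21 pairs of neighbors). The other 5 pairs overlapped. In the orders of *NUP54* and *NUP62*, all 14 pairs of neighbors overlapped.

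In HCT116 cells, the *NUP58* level of the clone was below the mean of the controls in 3 of 4 libraries but did not pass the test. The 4 clone libraries had 25.3, 23.3, 44.7 and 24.3 FPKM in replicates 1 to 4. The 11 unedited libraries ran from 23.9 (EV2 replicate 3) to 50.3, with a median of 45.4. Of the unedited libraries, those numbered 1 were also low, with 35.2 in WT, 28.7 in EV1 and 29.7 in EV2, so that the groups overlapped. The mean of the clone was 72.6% of that of the controls, and the log2 fold change was -0.46 (95% interval -0.89 to -0.03, adjusted p = 0.452 from limma). In this comparison limma called 0 of 12960 genes at an adjusted p under 0.05 (0%), and 1342 had an unadjusted p under 0.05. Without the libraries numbered 3, the log2 fold change of *NUP58* was -0.73, and limma called 769 of 13000 genes (5.92%).

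*NUP54* and *NUP62* did not pass the test in the HCT116 clone, and their ranges lay within those of the controls. *NUP54* had 37.2, 35.4, 43.4 and 31.5 FPKM in the clone and 28.4 to 51.3, with a median of 37.6, in the controls (log2 fold change -0.08, 95% interval -0.39 to 0.22). *NUP62* had 55.6, 50.2, 66.4 and 48.7 FPKM in the clone and 42.5 to 72.0, with a median of 59.3, in the controls (log2 fold change -0.08, 95% interval -0.35 to 0.19). Without the libraries numbered 3 the changes were -0.17 and -0.16 (adjusted p = 0.557 and 0.527 from limma). In all 3 genes replicate 3 was the highest library of the clone.

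The ratio of *NUP58* to *NUP54* was 0.680, 0.658, 1.03 and 0.771 in the HCT116 clone and 0.711 to 1.22 in the controls, with a median of 1.01. That of *NUP58* to *NUP62* was 0.455, 0.463, 0.673 and 0.499 in the clone and 0.426 to 0.883 in the controls, with a median of 0.730. Again the lowest control was EV2 replicate 3. The log2 differences were -0.39 (p = 0.0154, adjusted p = 0.0462) and -0.40 (p = 0.0330, adjusted p = 0.0495) in exact permutation tests of 4 against 11, and that of *NUP54* to *NUP62* was -0.0044 (p = 0.955). These calls were not stable. They were lost on leaving out any 1 library other than clone replicate 3, EV2 replicate 1 or EV2 replicate 3, with adjusted p-values of up to 0.144. Without clone replicate 3 the difference for *NUP58* to *NUP54* was -0.53, and without EV2 replicate 3 it was -0.45. These 2 libraries are the ones that stood out by *NUP58*, so that larger differences without them follow from leaving them out. Without all libraries numbered 3, the differences were -0.57 and -0.59, and that of *NUP54* to *NUP62* was -0.013. Without the 2 libraries whose labels conflict, both ratios had an adjusted p of 0.118, and blocking by replicate number gave 0.0938.

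The change of *NUP58* was larger in the mean of the 6 HAP1 clones than in the HCT116 clone. Single clones were not tested against the HCT116 clone, and C4, at -0.66 against -0.46 there (-0.73 without the libraries numbered 3), is not set apart from it. The difference of both changes was -1.02 in limma over the 47 libraries (95% interval -1.49 to -0.55, adjusted p = 0.0115), where 1.03% of 13629 genes were called lower. It was -0.75 without the HCT116 libraries numbered 3. For the ratios it was -1.06 for *NUP58* to *NUP54* and -1.09 for *NUP58* to *NUP62* (adjusted p = 0.0144 each, permutation test within cell lines with 100000 resamples). That test shuffles clone and reference labels within each cell line, so its null is no change in either, rather than equal changes in both. The adjusted p of both ratios was 0.0501 without clone replicate 3 of HCT116 and 0.0609 without all libraries numbered 3. For *NUP54* and *NUP62* the difference was -0.01 (95% interval -0.34 to 0.32) and 0.02 (95% interval -0.29 to 0.33). Cell line, clone and edited sites cannot be told apart in these comparisons.

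Between the unedited cells of both lines, *NUP62* was higher in HAP1, and *NUP58* and *NUP54* did not pass the test. The 8 unedited HAP1 libraries had a median of 40.4 FPKM for *NUP58* (34.3 to 50.4), 39.6 for *NUP54* (35.2 to 45.9) and 74.5 for *NUP62* (53.1 to 88.2). The medians of the 11 HCT116 libraries were 45.4, 37.6 and 59.3 FPKM. *NUP62* was higher in HAP1 (log2 difference 0.29, 95% interval 0.08 to 0.50, adjusted p = 0.0137 from limma), in a comparison where 39.5% of 13538 genes were called higher and the median of all genes was 0.10. It was 0.16 with scaling by median ratios, which set the median of all genes at -0.02, and no longer passed (adjusted p = 0.137). The differences of *NUP58* (0.04, 95% interval -0.25 to 0.32) and *NUP54* (0.06, 95% interval -0.16 to 0.27) did not pass and turned negative under that scaling. Without the libraries numbered 3, *NUP62* differed by 0.30 (adjusted p = 0.0225 from limma) and *NUP54* by 0.041. In exact permutation tests the ratios of *NUP58* to *NUP62* (-0.26) and of *NUP54* to *NUP62* (-0.24) were lower in HAP1 but did not pass after adjustment (adjusted p = 0.0678 each). Cell line and any difference in handling cannot be told apart here.

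Within groups, the 3 mRNAs varied together in HCT116, and *NUP58* with *NUP62* in HAP1. Deviations of log2(FPKM + 1) from the group mean were compared over libraries. They share the scaling of their library, and 6 relations were computed. How strongly other pairs of genes vary together in this way was not computed, so these values do not set the trimer apart. The unedited HCT116 libraries were taken as 1 group, so that differences among WT, EV1 and EV2 enter the r there. In the 32 HAP1 libraries, Pearson's r of *NUP58* with *NUP62* was 0.613 (Spearman's rho 0.641, adjusted p = 0.00198 for r and 0.00396 for rho, permutation within lines), and 0.680 without the 2 libraries farthest from the median of *NUP58*. *NUP58* with *NUP54* gave an r of 0.334 (rho 0.368, adjusted p = 0.169 and 0.0795, permutation test), and *NUP54* with *NUP62* an r of 0.260 (rho 0.214, adjusted p = 0.205 and 0.288, permutation test). In the 15 HCT116 libraries r was 0.783 for *NUP58* with *NUP54* (rho 0.857, adjusted p = 0.00198 and 0.0009), 0.670 for *NUP58* with *NUP62* (rho 0.714, adjusted p = 0.0141 and 0.00822) and 0.828 for *NUP54* with *NUP62* (rho 0.754, adjusted p = 0.00138 and 0.00396), by permutation within groups. Without the 2 farthest libraries these r were 0.811, 0.715 and 0.914. With the mean of each replicate number removed as well, r was 0.603 for *NUP58* with *NUP62* in HAP1 (adjusted p = 0.00606, permutation test) and 0.567 in HCT116 (adjusted p = 0.0774). Without the HCT116 libraries numbered 3, r was 0.834, 0.708 and 0.821 for the 3 pairs in the same order.

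**Figure D5:**
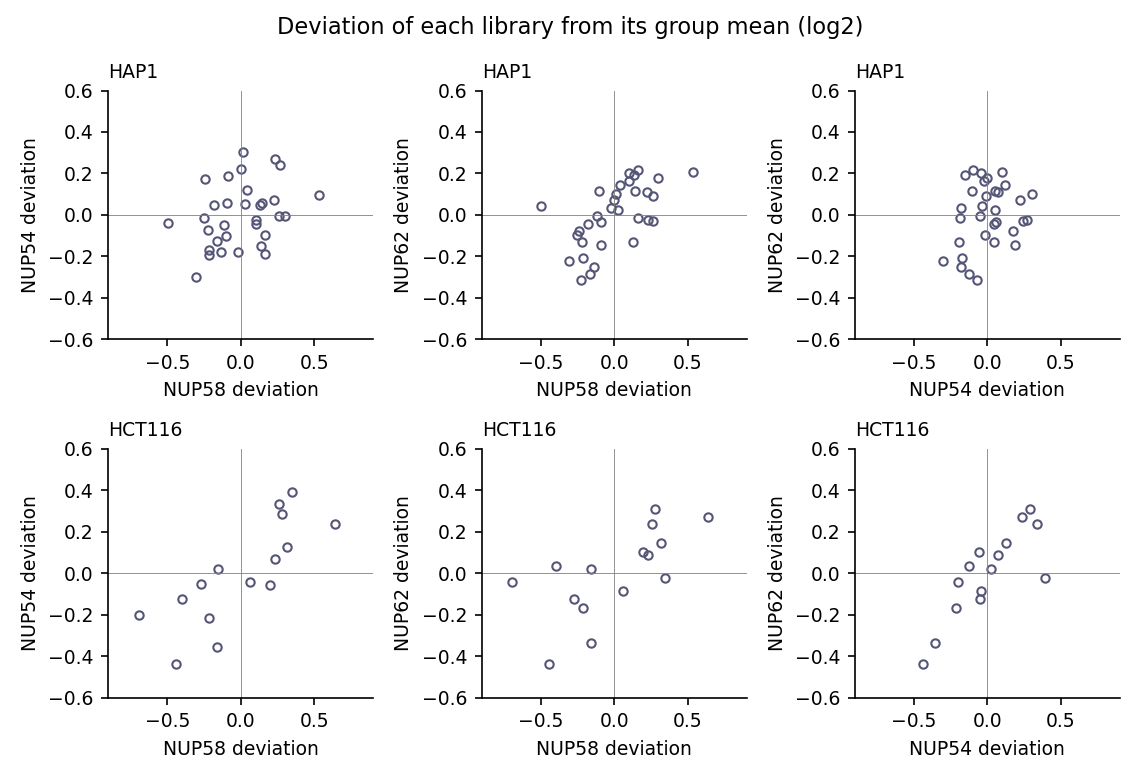
Deviation of each library from the mean of its line (HAP1, upper row, 32 libraries) or group (HCT116, lower row, 15 libraries) on log2(FPKM + 1), for the 3 pairs of genes on the x and y axes. Points rise from lower left to upper right for NUP58 with NUP62 in HAP1 (r of 0.613) and for all 3 pairs in HCT116.

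Over the 32 HAP1 libraries, and so with the clones in the range, the genes most like *NUP58* among 9867 with a mean FPKM of at least 5 were *SPARC* (r of 0.877), *PUDP* (0.816) and *ACTN1* (0.766). Those most like *NUP54* were *PRIM1* (0.905), *YEATS4* (0.817) and *KIAA0101* (0.795), and those most like *NUP62* were *PPP1CA* (0.862), *PRPF19* (0.854) and *QTRT1* (0.853). These are descriptions over 32 libraries that share lines and library scaling. The 3 genes of the trimer were far from the top of each other's orders. In the order for *NUP58*, *NUP62* stood at rank 519 (r of 0.489) and *NUP54* at rank 2324 (r of 0.273).

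Few other genes around the trimer passed the test. Of the 5 genes of the *NUP93* complex, which anchors the trimer, none passed in C1–C4 or in the mean of the clones, where the median log2 fold change was -0.15 against -0.02 for all genes tested. *NUP35*, a member that links the inner ring to the membrane, was higher in C5 (0.55, adjusted p = 0.0204 from limma) and in C6 (0.47, adjusted p = 0.0384), where 3.28% and 6.28% of all genes were called higher. In EV and in the mean of the clones it was at 0.15 and 0.30, and the calls in C5 and C6 were lost on leaving out 5 and 7 of the 8 libraries in turn. *NUP88* and *NUP214*, the partners of *NUP62* on the cytoplasmic face, did not pass in any line.

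Of 8 other nucleoporins with FG repeats, *NUP214* among them, 1 passed in any HAP1 line. *NUP153*, of the nuclear basket, was lower in C6 (-0.95, adjusted p = 0.00155 from limma), also on leaving out each library, in a clone where 5.39% of all genes were called lower. Of 8 carriers that bind FG repeats, *TNPO1*, the import receptor transportin-1, was higher in the mean of the 6 clones (0.51, adjusted p = 0.0241 from limma), where 3.17% of genes were called higher, and in C6 (0.63, adjusted p = 0.0248). The median of the 8 carriers in the mean of the clones was 0.10. The call for the mean of the clones was lost without WT replicate 1, 2 or 4 (adjusted p of up to 0.126) and without C6, and that in C6 on leaving out 5 of 8 libraries in turn. *IPO5*, an importin, was lower in C5 (-0.40, adjusted p = 0.0258 from limma) and C6 (-0.35, adjusted p = 0.0271), where 4.27% and 5.39% of all genes were called lower. Both calls were lost on leaving out 5 and 6 of the 8 libraries. In the HCT116 clone none of the 22 listed genes passed, in a comparison where 0% of all genes did, and *TNPO1* was at 0.54 (unadjusted p = 0.00479, adjusted p = 0.332 from limma). Without the HCT116 libraries numbered 3, where 5.92% of all genes were called, 1 of the 22 listed genes passed, near that share. It was *TNPO1* (0.69, adjusted p = 0.0399 from limma). Those libraries were left out after seeing that 2 of them looked unlike their labels, so this call is a description.

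Genes that could share fragments with the 3 members were also read. *NUP62CL*, a paralog of *NUP62* on chromosome X, had 14.2 ± 3.90 FPKM in WT and 4.79 ± 0.877 in C5 (SD, n = 4). It was lower in C5 (log2 fold change -1.37, adjusted p = 0.00273 from limma), also on leaving out each library, and did not pass in the mean of the 6 clones (-0.44, adjusted p = 0.151). *NUP58P1*, a processed pseudogene of *NUP58* on chromosome 4, was listed at 0 in all libraries. *NUP62* overlaps *IL4I1* on its own strand, at 0 to 0.915 FPKM, and *ATF5* on the opposite strand, at 9.46 to 242.3 FPKM in the HAP1 clones. ENSG00000269179, a protein-coding gene on the same strand that overlaps the coding exon of *NUP62*, was listed at 0 in all libraries. *NUP54* overlaps *ART3* on the opposite strand, at 0 to 0.821 FPKM. How the counting treated strand is not given in the sources used here, so that fragments from *NUP62* and *ATF5* where they overlap cannot be told apart.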

How the data were processed

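Total RNA of 47 libraries was sequenced by the authors as read pairs, and read quality was checked with FastQC. They trimmed adaptors, aligned reads to GRCh38 with STAR and estimated gene levels with RSEM (versions not given in the sources used here). The authors deposited FPKM without normalization between libraries. RSEM assigns fragments to annotated transcripts, whereas mutant *NUP58* transcripts can skip exons or end early, and the effect of this on *NUP58* was not tested. No libraries held identical values, and all columns were used.

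Genes whose FPKM averaged 1 or more over the libraries of a fit were tested on log2(FPKM + 1) with limma 3.58.1 (lmFit, eBayes with trend) in R 4.3.3, with Benjamini-Hochberg adjustment over all genes and a threshold of 0.05. Such fold changes understate changes of low genes. Ratios of FPKM were compared without a pseudocount by exact two-sided permutation tests, adjusted over the 21 tests of the HAP1 lines or the 3 of each other comparison, and the difference between cell lines by 100000 resamples (20000 where a library was left out). On simulated data with 200 genes changed by 1 on the log2 scale, limma recovered 145 in C1 against WT (13160 genes), 187 in the mean of the clones (13180) and 178 in HCT116 (12960), with 19, 13 and 10 unchanged genes called. The simulated noise was independent, without effects shared by libraries, and genes at low levels were not among those changed. These counts are therefore no measure of power in the real data.

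Same-numbered libraries deviated together from their group means across genes in all 4 pairs (r over 0.1) in C1–C4, EV and the mean of the clones, but not in C5, C6 or HCT116. Groups came from the sample labels, replicate numbers from the titles. *NUP58*, *NUP54* and *NUP62*, their lists and the genes named were chosen with earlier results of these data known. Genes were named as members, list members, overlapping genes and paralogs, or as the 3 with the highest r with a member. *NUP42* is listed in the table as *NUPL2*. Alternatives were a pseudocount of 0.1 (ratios, 1), no filter, scaling to TPM or by median ratios, no trend, a replicate block, *ASNS* as a covariate, other references, and leaving out clones, libraries or conflicting labels. Alternatives for the covariation, and some for the difference between cell lines, were added after seeing the data. Sequences were read from GRCh38 with GENCODE release 44. Guides and proteins were not analysed here. Tables and figures used matplotlib 3.10.9, pandas 2.3.3 and numpy 2.4.6 under Python 3.11.15.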

Additional observations from a re-analysis of the deposited data

Results flagged for a closer look

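In 60 sets of values (3 genes and 3 ratios in each group of 4 libraries), 3 had a library far from the other 3, which is the 5% that chance gives. *NUP58* in the HCT116 clone was at 44.7 FPKM in replicate 3 against 23.3 to 25.3 in the others, a gap of 0.905 of the range. The ratio of *NUP54* to *NUP62* in C5 was 0.759 in replicate 1 against 0.581 to 0.593, a gap of 0.930 of the range. The ratio of *NUP58* to *NUP62* in C3 was 0.250 in replicate 1 against 0.191 to 0.199, a gap of 0.857 of the range.

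The change of *NUP58* in the mean of the 6 HAP1 clones was larger than that in the HCT116 clone. The change in the 6 HAP1 clones minus that in the HCT116 clone was -1.02 for *NUP58* (adjusted p = 0.0115 from limma), -1.06 for *NUP58* over *NUP54* and -1.09 for *NUP58* over *NUP62* (adjusted p = 0.0144 each, permutation test). The null of that permutation test is no change in either cell line, so it does not test whether both changes are equal. The HAP1 side holds 6 clones and the HCT116 side 1, and replicate 3 of that clone has the level of the controls.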

How the results depend on the processing

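The lower *NUP58* in C1, C2, C3, C5, C6, the mean of the clones and the difference between cell lines kept its direction and passed under every alternative run, as did both *NUP58* ratios in the mean of the clones. The replicate block changed no other call of the 3 genes in HAP1 than that of *NUP58* in C4. In HCT116, same-numbered libraries deviated together in 1 of 4 pairs (r over 0.1), with the libraries numbered 3 included. Both *NUP58* ratios there were -0.40 and -0.39 under the block (adjusted p = 0.0938, permutation test within blocks), and *NUP54* over *NUP62* was 0.0017. Limits are the unknown fragment numbers, 4 libraries a line, 1 HCT116 clone and the libraries numbered 3. The cause of the changes that follow was not tested.

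Genes called in the mean of the clones numbered 870, and 1942 with *ASNS* as a covariate or 2310 against WT and EV. For the difference between cell lines they numbered 246, 404 with the block, 500 against WT and EV, 406 without C3, 157 without C6 and 909 without the libraries numbered 3.

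Signs of small changes that did not pass turned. *NUP62* in C2 became 0.0029 in TPM, 0.028 with median ratios and 0.034 with *ASNS*, and in C4 it became -0.033 with *ASNS*, -0.20 with EV as the reference and -0.095 with WT and EV. *NUP54* in EV became 0.012 with *ASNS*. *NUP54* over *NUP62* turned positive with EV as the reference (0.18 in C1 and 0.18 in C2, 0.073 and 0.11 in C3 and C4, 0.18 in the mean, 0.19 for the difference between cell lines) and with WT and EV (0.075 in C1, 0.068 in C2, 0.0036 in C4, 0.075 in the mean, 0.079 for the difference). Between unedited cells with median ratios, *NUP58* was -0.095, *NUP54* -0.075 and *NUP62* 0.16 (no longer passing). Without the conflicting labels *NUP62* was 0.24 and *NUP58* over *NUP54* 0.00068, and with WT alone *NUP62* was 0.40, neither *NUP62* value passing. Without the libraries numbered 3, *NUP58* was -0.015 there, and *NUP58* over *NUP62* was -0.32, past the threshold. EV2 replicate 3, left out for its *NUP58*, was the lowest unedited HCT116 library for that ratio, so that this call is no test. The difference between cell lines for *NUP54* became 0.0012 with median ratios, 0.0025 with EV, 0.022 without C3 and 0.083 without the libraries numbered 3, and for *NUP62* -0.18 with EV, -0.083 with WT and EV and -0.032 without the conflicting labels.

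In HCT116, *NUP58* was -0.73 without the libraries numbered 3, a larger change that follows from leaving out libraries that stood out by *NUP58*. *NUP58* in C4 gained the call in 3 settings (replicate block, *ASNS* as a covariate, WT and EV). In these, 319, 158 and 162 of all genes were called, against 21 in the main setting. *NUP58* over *NUP62* no longer passed with a pseudocount of 1 (-0.39), nor did both *NUP58* ratios without the conflicting labels (-0.37 and -0.38). The difference between cell lines no longer passed for both *NUP58* ratios without the libraries numbered 3 (-0.89 and -0.91).

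With 1 library left out at a time, *NUP62* ran from -0.16 to 0.028 in C1, -0.11 to 0.066 in C2, -0.097 to 0.10 in C4, -0.17 to 0.0072 in C5 and -0.16 to 0.014 in the mean. *NUP54* ran from -0.079 to 0.011 in C2, -0.11 to 0.067 in C5, -0.071 to 0.028 in C6 and -0.076 to 0.049 in EV, and *NUP58* from -0.10 to 0.078 in EV. *NUP54* over *NUP62* ran from -0.14 to 0.051 in the mean, -0.030 to 0.038 in HCT116, -0.29 to -0.19 between unedited cells and -0.14 to 0.056 for the difference. The HCT116 ranges were -0.53 to -0.32 for *NUP58* over *NUP54* and -0.53 to -0.34 for *NUP58* over *NUP62*. Between unedited cells they were -0.034 to 0.070 for *NUP58*, -0.071 to 0.040 for *NUP58* over *NUP54* and -0.33 to -0.22 for *NUP58* over *NUP62*. For the difference between cell lines they were -0.082 to 0.068 for *NUP54*, -0.086 to 0.11 for *NUP62*, -1.21 to -0.92 for *NUP58* over *NUP54* and -1.15 to -0.97 for *NUP58* over *NUP62*. Of 1705 values under alternatives in all, 1501 were counted as kept, 78 lost and 34 gained the call. A further 88 were counted as changed in sign, and 4 moved by more than the spread. Ratios given without a test were counted as kept if they moved by less than the SD, also where an uncalled ratio changed sign. *NUP54* over *NUP62* in C1, at -0.14 to 0.051 with 1 library left out, was counted so. The 88 therefore understate the changes of sign.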
